A study of Mus musculus with 54 samples.

Results

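The 37 genes of mouse mitochondrial DNA were followed through RNA sequencing of laser-captured motor neurons. They were taken as all genes whose symbol starts with mt-, by Ensembl identifier, and are 37 of the 55354 mouse genes in the count table: 13 protein-coding genes, 2 rRNA genes and 22 tRNA genes. All 37 passed the filter on low counts, among 18493 genes tested. The share of counts from these genes differed between projects, a project being the prefix of the library name. Tests therefore come from a fit of all libraries with a project term. Fits within a single project are named as such.

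Mitochondria keep a small circular genome with no introns. Both strands are transcribed into long precursors by the mitochondrial RNA polymerase, and the tRNAs that lie between the other genes are cut out to release the mRNAs and rRNAs. Most of the mRNAs and the rRNAs receive short poly(A) tails. The 13 proteins are core subunits of complexes I, III and IV of the respiratory chain and of the ATP synthase, the rRNAs build the mitochondrial ribosome, and all other subunits are encoded in the nucleus. Motor neurons have long axons with a high demand for mitochondrial ATP, and swollen or vacuolated mitochondria are a known feature of motor neurons in mice with mutant human SOD1.

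The mSOD mice carry the human SOD1G93A transgene, a mutant form of the gene, in addition to their own Sod1, and wild-type (wt) littermates are the controls. The motor pools sampled were lumbar spinal cord (SC), hypoglossal (CN12), vagal (CN10), and oculomotor with trochlear (CN3/4). Mice were taken at postnatal ages P56, before symptoms, or P112, with symptoms. This gave 16 groups of 3 libraries, except SC P56 mSOD, SC P56 wt and SC P112 wt with 5 each, 54 in all. The series calls the replicates biological; cell number and sex of the animals were not used here.

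Libraries held 1071477 to 8877994 counts. The SOD1 transgene took 3.95% to 7.94% of the counts in mSOD libraries and at most 0.0046% in wt libraries. Summed motor neuron markers (10 genes) lay between 1231 CPM (counts scaled to library size) in CN10 and 10613 CPM in SC, and summed microglial markers (10 genes) reached at most 83.2 CPM. The prefix of a library's name, such as P11355, was taken as its sequencing project and treated as a batch. By this prefix all cranial P56 libraries belong to P11355. All cranial P112 libraries belong to P10814, except CN12 P112 mSOD replicate 3 (P11355). SC libraries come from all 3 projects: the 5 SC P56 mSOD libraries are all from P6362, SC P56 wt replicates 1 and 2 are from P11355 and replicates 3 to 5 from P6362, SC P112 wt replicates 1 and 2 are from P10814 and replicates 3 to 5 from P6362, and the SC P112 mSOD libraries are 1 each from P10814, P11355 and P6362.

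Neighbouring genes on this genome overlap, lie on opposite strands, or exist as copies in nuclear DNA, and these features limit what a count means. The sequences below are shown for that reason. They are GENCODE M21 transcripts (build GRCm38), printed 5′ to 3′. In the first 4, capitals mark bases shared with an overlapping gene. mt-Tw (tRNA for tryptophan), mt-Tq (glutamine) and mt-Ts1 (serine) are 67 to 71 bases long, and mt-Atp8 shares 43 of its 204 bases with mt-Atp6. In mt-Nd4l, the capitals mark the only 3 of 297 bases that lie outside its alignment, with 100% identity, to the nuclear copy Gm10222.
mt-Tw: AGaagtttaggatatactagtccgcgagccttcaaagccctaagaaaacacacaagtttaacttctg
mt-Tq: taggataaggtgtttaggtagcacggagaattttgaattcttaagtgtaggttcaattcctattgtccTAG
mt-Ts1: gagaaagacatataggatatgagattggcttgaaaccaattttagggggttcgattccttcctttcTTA
mt-Atp8: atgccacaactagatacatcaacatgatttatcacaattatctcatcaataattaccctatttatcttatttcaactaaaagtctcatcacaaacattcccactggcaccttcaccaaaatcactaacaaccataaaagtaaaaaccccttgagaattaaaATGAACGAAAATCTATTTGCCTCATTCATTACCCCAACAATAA
mt-Nd4l: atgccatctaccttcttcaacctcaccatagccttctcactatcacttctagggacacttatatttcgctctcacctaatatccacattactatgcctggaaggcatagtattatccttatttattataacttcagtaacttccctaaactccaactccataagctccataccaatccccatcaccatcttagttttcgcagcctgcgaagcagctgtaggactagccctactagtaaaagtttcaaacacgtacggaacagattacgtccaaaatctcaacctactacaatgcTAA

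Levels per length spanned more than 2 orders of magnitude. The deposited RPKM values (reads scaled to gene length and library size) were used for this; they equal the counts divided by the bases a gene does not share with a neighbour. Among the protein-coding members, the median RPKM over the 54 libraries was highest for mt-Atp6 (19023) and mt-Co3 (16388), followed by mt-Co2 (12847), mt-Nd1 (11580), mt-Atp8 (9157), mt-Co1 (8397) and mt-Cytb (7112). It was lowest for mt-Nd4l (1486) and mt-Nd5 (716), both subunits of complex I. The library ranges of neighbours in this order overlapped: mt-Nd1 lay between 4126 and 25073 RPKM and mt-Cytb between 3856 and 14583 RPKM.

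Over all libraries the rRNAs had a median RPKM of 3927 (mt-Rnr2) and 2168 (mt-Rnr1). The place of mt-Rnr2 in the order differed by project: its median was 3548 RPKM in P11355, 3830 in P10814 and 6212 in P6362, where only 5 mRNAs (mt-Atp6, mt-Co3, mt-Co2, mt-Nd1 and mt-Atp8) had a higher one. Of the tRNAs, mt-Ts1 had the highest median of all members over all libraries (21788 RPKM, from 4780 to 52586), in P11355 and in P10814, while in P6362 mt-Atp6 was first (18812 RPKM) and mt-Ts1 next (11518 RPKM). mt-Tq was at a median of 8370 RPKM (from 1454 to 47915). Both lie on the strand opposite to most mRNAs, and mt-Ts1 lies directly beside mt-Co1, with which it shares its last 3 bases. The libraries carry no strand, so reads of mt-Ts1 cannot be told apart from reads of the opposite strand at the same place. Those would include any transcript that runs past the end of mt-Co1. The lowest median over all libraries was that of mt-Ts2, at 63.3 RPKM, with 0 in the lowest library, although in P11355 mt-Td was lower (85.7 against 113 RPKM).

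**Figure D1:**
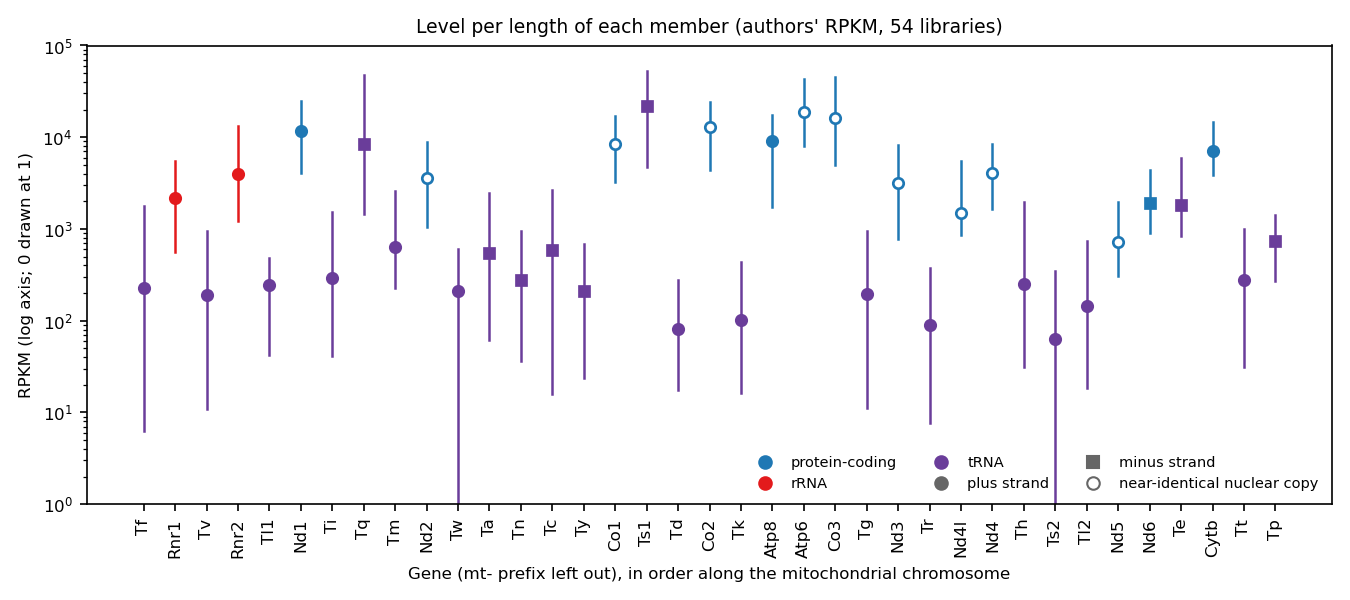
The authors' RPKM (log axis; 0 drawn at 1) of the 37 mitochondrially encoded genes in their order on the genome; symbols are medians and lines the lowest to the highest of 54 libraries, colors give the gene class, squares the minus strand and open symbols members with a near-identical nuclear copy. Over all libraries mt-Ts1 and mt-Atp6 have the highest medians, at 21788 and 19023 RPKM, and mt-Ts2 the lowest, at 63.3 RPKM.

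Of the 13 protein-coding members, 9 have nuclear copies at 95% identity or more over at least 100 bases, in 11 pairs of member and copy. Counts of some copies were nearly those of the member. In the median library, Gm28437 had 99.9 counts for every 100 of mt-Co3, Gm28661 98.9 for every 100 of mt-Co2, Gm10925 108.2 for every 100 of mt-Atp6, Gm28438 94.2 for every 100 of mt-Nd3 and Gm10222 81.6 for every 100 of mt-Nd4l. For mt-Nd5 the copy Gm4076 had 6.2 for every 100. No such copy was found for mt-Rnr1, mt-Rnr2, mt-Nd1, mt-Cytb, mt-Nd6 or mt-Atp8. The tRNAs, at 59 to 75 bases, are shorter than the 100 bases required, so the search could not find copies of them. Only annotated transcripts were searched, so copies elsewhere in nuclear DNA would have been missed. The levels of mt-Atp6, mt-Co1, mt-Co2, mt-Co3, mt-Nd2, mt-Nd3, mt-Nd4, mt-Nd4l and mt-Nd5 are therefore uncertain by the reads assigned to copies.

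**Figure D2:**
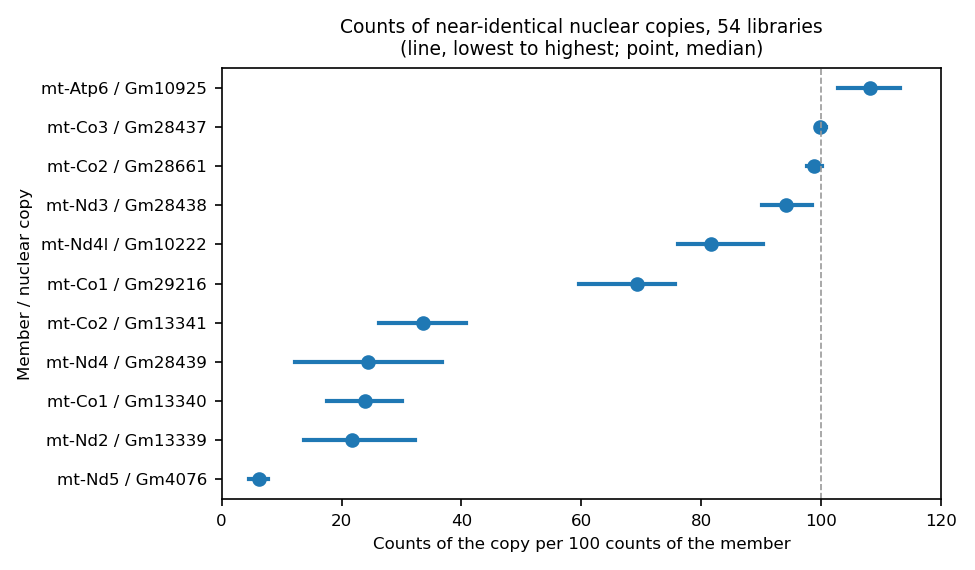
Counts of each nuclear copy per 100 counts of the mitochondrial member; points are medians, lines run from the lowest to the highest of 54 libraries, and the dashed line marks equal counts. The copies of mt-Atp6, mt-Co3, mt-Nd3 and mt-Nd4l and the first of the 2 copies of mt-Co2 had medians between 81.6 and 108.2 per 100, and the copy of mt-Nd5 had 6.2.

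Together the members took 3.38% to 15.2% of a library's counts. The share differed between projects among wt libraries alone: it was 5.48% to 15.2% in P11355 (median 9.34%, 11 libraries), 5.32% to 10.9% in P10814 (6.83%, 11 libraries) and 3.73% to 6.02% in P6362 (4.55%, 6 libraries). SC P56 wt shows this within 1 group, with 15.2% and 10.2% in its P11355 libraries and 3.73%, 4.59% and 3.92% in its P6362 libraries. Shares are described without a test.

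Within P6362, the 5 SC P56 mSOD libraries had 8.94%, 6.56%, 8.37%, 9.29% and 8.34% of counts from members, 8.30% ± 1.05 (SD, n = 5) against 4.08% ± 0.449 (SD, n = 3) in wt. Every mSOD library lay above every wt library, and the ratio of means was 2.03. Over all SC P56 wt libraries, both projects pooled, the ratio was 1.104, since the P11355 wt libraries lay above all mSOD libraries. In CN10 at P56, within P11355, mSOD libraries also lay above wt (11.1%, 10.1% and 10.9% against 9.34%, 8.42% and 6.36%, ratio 1.33). In CN12 at P56, within the same project, they were at 4.56%, 3.38% and 6.40% against 12.1%, 8.14% and 6.001% (ratio 0.547), and the groups overlapped. The ratio was 0.994 in CN3/4 at P56, and at P112 0.984 in CN3/4 and 0.925 in CN10. In CN12 at P112 it was 0.89 over all libraries and 0.791 within P10814, without mSOD replicate 3. In SC at P112 it was 1.35 over all libraries (8.28% ± 2.42, SD, n = 3, against 6.14% ± 1.503, SD, n = 5), which overlapped. By project, the mSOD library of P6362 was at 7.30% against 4.86%, 4.51% and 6.02% in wt, that of P10814 at 6.49% against 7.38% and 7.92%, and that of P11355 had no wt library of its group beside it.

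**Figure D3:**
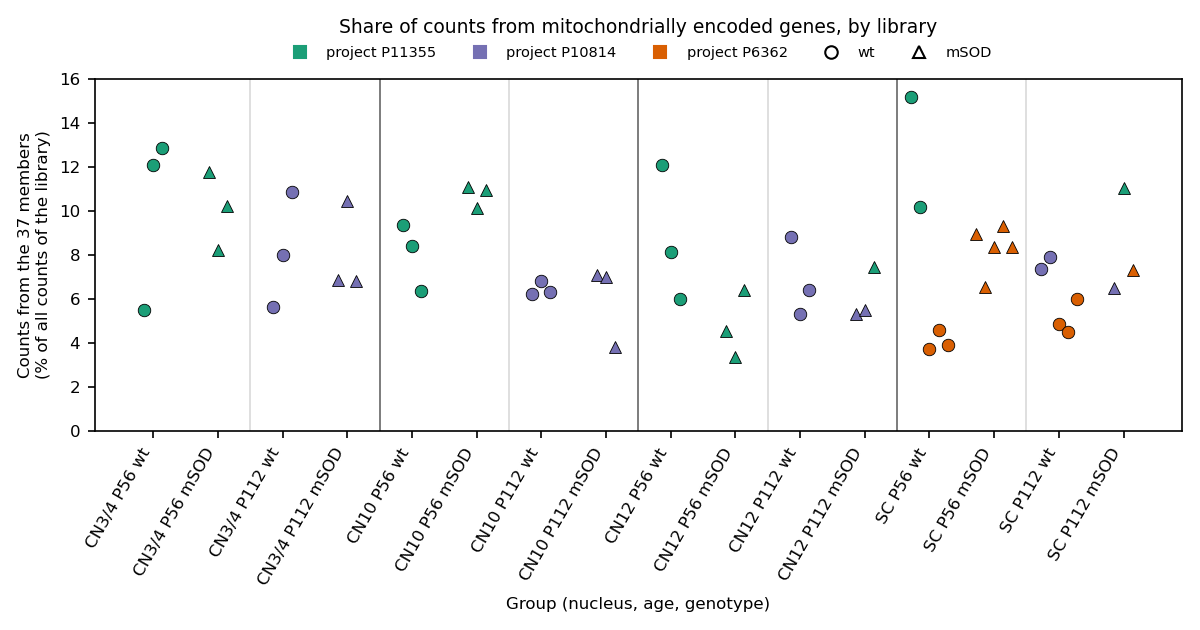
Share of all counts from the 37 mitochondrially encoded genes (percent) in each library by nucleus, age and genotype, with project shown by color and genotype by symbol (circles wt, triangles mSOD). In SC at P56 the P6362 wt points lie between 3.73% and 4.59%, below the mSOD points at 6.56% to 9.29%, and the P11355 wt points lie above both.

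At P56, before symptoms, both rRNAs and most of the mRNAs were called higher in SC motor neurons of mSOD mice in at least 1 of 2 fits, and for most mRNAs the mSOD libraries lay above the wt libraries of P6362 but not above those of P11355. In the fit of all 54 libraries with a project term, 6 of the 37 members were higher and 0 lower at an adjusted p under 0.05 (edgeR quasi-likelihood test with Benjamini-Hochberg adjustment), against 0.541% of all genes called in either direction. They were mt-Rnr1, mt-Rnr2, mt-Co2, mt-Nd5, mt-Nd4l and mt-Tw. DESeq2 called 11, and edgeR with no filter on low counts 19, both without the share of all genes called in those settings beside them. Within P6362, where 5 mSOD libraries met 3 wt libraries, 15 of 37 were higher and 0 lower, against 1.38% of all genes called in either direction and 0.48% called higher. These were 11 of the 13 protein-coding members, mt-Rnr1 and 3 tRNAs. In both fits all 37 had a positive fitted change, with a median log2 of 1.196 against 0.05 over all genes in the fit of all libraries and of 1.46 within P6362. Within P6362, 31 of the 37 did not overlap between genotypes, all with mSOD higher, against 9.13% of all genes in either direction and 4% in that direction. The 3 wt libraries of this comparison also lay low against the P112 wt SC libraries of P6362, with 35 of 37 members fitted higher at P112.

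The rRNAs differed by more than most of the mRNAs. mt-Rnr1 (ENSMUSG00000064337), the RNA of the small ribosomal subunit, was at 2930, 2371, 3117, 4148 and 2305 CPM in mSOD, at 746, 994 and 438 CPM in the P6362 wt libraries and at 1849 and 1266.9 CPM in the P11355 wt libraries. All mSOD libraries lay above all wt libraries of both projects. Within P6362 the means were 2974 ± 743 (SD, n = 5) and 726 ± 279 CPM (SD, n = 3), a log2 change of 2.04 (SE 0.28, edgeR adjusted p = 0.00498). The fit of all libraries gave 1.80 (SE 0.30, edgeR adjusted p = 0.00157).

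mt-Rnr2 (ENSMUSG00000064339), the RNA of the large ribosomal subunit, was at 15519, 7039, 15735, 16456 and 13648 CPM in mSOD against 3773, 4680 and 2943 CPM in P6362 wt, and at 4859 and 3318 CPM in P11355 wt. Again no mSOD library overlapped a wt library. Its log2 change passed in the fit of all libraries, at 1.68 (SE 0.36, edgeR adjusted p = 0.0171), but not within P6362, at 1.85 (SE 0.39, edgeR adjusted p = 0.0714). Without mSOD replicate 2, the lowest of the 5, it passed within P6362 as well. In the share of member counts, the rRNAs together made up 14.3% to 21.5% in mSOD and 8.96% to 13.5% in P6362 wt, with no overlap.

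Complex I, which takes electrons from NADH, has 7 mitochondrial subunits, and 5 of them were called higher within P6362. mt-Nd1 (ENSMUSG00000064341) was at 8228, 4803, 7317, 7916 and 8481 CPM in mSOD against 3232, 3521 and 3574 CPM in P6362 wt. The log2 change of mt-Nd1 was 1.098 (SE 0.18, edgeR adjusted p = 0.00498), with no overlap within the project. In P11355 wt, mt-Nd1 was at 23547 and 12636 CPM, above every mSOD library.
mt-Nd6 (ENSMUSG00000064368), the only protein-coding gene on the opposite strand, was at 1395, 1328, 1676, 1728 and 1185 CPM against 494, 719 and 655 CPM, a log2 change of 1.23 (SE 0.16, edgeR adjusted p = 0.000103). The groups did not overlap within P6362. mt-Nd2, mt-Nd4 and mt-Nd5 also did not overlap: their means were 3508 ± 529, 4832 ± 1063 and 2058 ± 660 CPM in mSOD (SD, n = 5) and 1741 ± 211, 2193 ± 286 and 731 ± 100.7 CPM in wt (SD, n = 3), with log2 changes of 1.01, 1.14 and 1.497 and edgeR adjusted p = 0.000358, 0.00424 and 0.00812.
mt-Nd4l was at 1033, 234, 1252, 1142 and 557 CPM in mSOD and 209, 285 and 204 CPM in P6362 wt, so that replicate 2 overlapped the wt libraries. Its log2 change of 1.86 did not pass within P6362 (SE 0.54, edgeR adjusted p = 0.176), while 1.65 passed in the fit of all libraries (SE 0.31, edgeR adjusted p = 0.00429). mt-Nd3, at 1050, 750, 995, 1165 and 515 CPM against 223, 334 and 418 CPM, had no overlap and a log2 change of 1.46 that did not pass (SE 0.32, edgeR adjusted p = 0.0675).

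Complex IV, cytochrome c oxidase, has its 3 catalytic core subunits from this genome, and all 3 were called higher within P6362 with the smallest p-values of all members. mt-Co1 (ENSMUSG00000064351) was at 10052, 7553, 10210, 11339 and 8959 CPM in mSOD and 4117, 4606 and 4241 CPM in P6362 wt. mt-Co2 (ENSMUSG00000064354) was at 7842, 6618, 6578, 7536 and 6147 CPM against 2496, 3189 and 3103 CPM. mt-Co3 (ENSMUSG00000064358) was at 9105, 7135, 8554, 9395 and 6982 CPM against 3236, 4268 and 3947 CPM. For each of the 3, the lowest mSOD library was above the highest P6362 wt library. The log2 changes were 1.16 for mt-Co1 (SE 0.14, edgeR adjusted p = 4.57e-05), 1.25 for mt-Co2 (SE 0.14, edgeR adjusted p = 2.8e-05) and 1.11 for mt-Co3 (SE 0.14, edgeR adjusted p = 7.72e-05). The P11355 wt libraries were higher than all of these, for example 34549 and 20056 CPM for mt-Co3. In the fit of all libraries only mt-Co2 of the 3 passed, at 1.07 (SE 0.24, edgeR adjusted p = 0.0171).

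Cytochrome b of complex III and both ATP synthase subunits had smaller differences. mt-Cytb (ENSMUSG00000064370) was at 6829, 5341, 6530, 7191 and 7359 CPM against 4035, 4014 and 3883 CPM in P6362 wt, a log2 change of 0.74 (SE 0.12, edgeR adjusted p = 0.0019). mt-Atp6 (ENSMUSG00000064357) was at 11807, 10880, 10913, 12006 and 13280 CPM against 7452, 8332 and 7731 CPM, a change of 0.59 (SE 0.10, edgeR adjusted p = 0.00343). Neither overlapped within P6362. mt-Atp8, which shares bases with mt-Atp6, was at 1964 ± 192 (SD, n = 5) against 1218 ± 86.5 CPM (SD, n = 3), a change of 0.69 (SE 0.12, edgeR adjusted p = 0.00376). None of the 3 was called in the fit of all libraries.

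**Figure D4:**
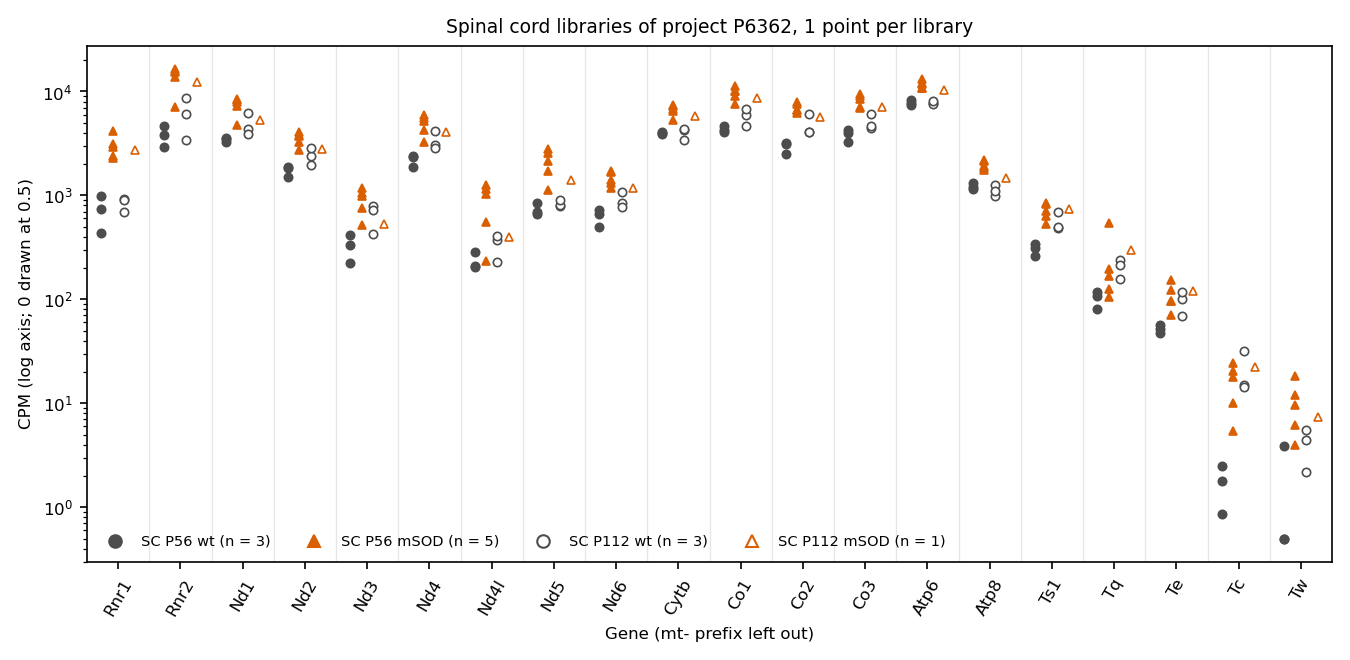
CPM (log axis; 0 drawn at 0.5) of both rRNAs, the 13 protein-coding members and 5 tRNAs in the SC libraries of project P6362, with 1 point per library: filled symbols P56, open symbols P112, circles wt, triangles mSOD. At P56 the mSOD points of mt-Co1 lie between 7553 and 11339 CPM and the wt points between 4117 and 4606 CPM, and the points of mt-Nd4l overlap.

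Among the tRNAs, which carry no poly(A) tail as a rule and are short, mt-Ts1 had 634, 842, 700, 833 and 525 CPM in mSOD and 259, 314 and 340 CPM in P6362 wt, with no overlap and a log2 change of 1.21 (SE 0.17, edgeR adjusted p = 0.000267). Without strand, these mt-Ts1 counts cannot be separated from reads of the opposite strand at that place. mt-Tq was at 106, 548, 169, 198 and 125 CPM against 81.1, 108 and 117 CPM, and overlapped. mt-Tw was at 9.64, 11.98, 6.17, 18.3 and 3.98 CPM against 0, 0 and 3.92 CPM, where the wt libraries hold 0, 0 and 11 counts, and passed only in the fit of all libraries (log2 change 2.30, SE 0.57, edgeR adjusted p = 0.0427).
mt-Tc (cysteine) and mt-Te (glutamate), named because they completed the count after their values were seen, had log2 changes of 3.13 (SE 0.57, edgeR adjusted p = 0.00498) and 1.06 (SE 0.22, edgeR adjusted p = 0.0151) within P6362. mt-Tc rested on 2, 3 and 7 counts in the wt libraries.

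The count of 6 in the fit of all libraries depended on single libraries: it was 1 without SC P56 wt replicate 3, 2 without wt replicate 4, 3 without wt replicate 5 or mSOD replicate 4, and 9 without wt replicate 1. mt-Rnr1 passed in all 10 of these fits. Within P6362 the count of 15 was 9 without wt replicate 3 and between 9 and 18 over all 8 fits that left out a library. The 9 members mt-Nd2, mt-Co1, mt-Ts1, mt-Co2, mt-Atp8, mt-Co3, mt-Nd4, mt-Nd6 and mt-Cytb passed in all 8. Without the project term, which leaves the P11355 wt libraries unadjusted, the fitted changes of mt-Nd1, mt-Co1, mt-Atp6, mt-Co3, mt-Nd3, mt-Nd4 and mt-Cytb over all libraries were below 0, from -0.68 to -0.01.

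In the same P6362 libraries, summed markers of motor neurons and of astrocytes did not overlap between genotypes, while the sums for the other cell types overlapped. The sums were taken over the unscaled count total of each library, SOD1 included. CPM of single marker genes used scaled library sizes, so sums and single genes are not on the same scale. Summed motor neuron markers were at 4779 to 7873 CPM in mSOD and 8438 to 10613 CPM in wt, with no overlap, and 2 of the 10 (Slc5a7 and Isl1) had a positive fitted change, although 0 were called (4 at an unadjusted p under 0.05). Mean CPM differed most for Nefh (3504 in mSOD against 4442.5 in wt) and Calca (855 against 1887), while Chat was at 73.3 against 79.5 CPM. In bulk samples fewer cells of a type and less RNA per cell cannot be told apart. Summed oligodendrocyte markers were at 287 to 708 CPM against 217 to 364 CPM (9 of 10 fitted higher, 0 called, 4 at an unadjusted p under 0.05). Summed interneuron markers were at 153 to 1013 CPM against 98.7 to 395 CPM (7 of 7 tested fitted higher, 0 called, 2 at an unadjusted p under 0.05, Vip at 0 in all 8 libraries). Summed erythrocyte markers were at 81.1 to 720 CPM against 43.4 to 99.0 CPM (4 of 4 tested fitted higher, 0 called). Summed astrocyte markers were lower in mSOD, at 959 to 1081 CPM against 1204 to 1280 CPM, with S100b called lower (log2 change -0.50, edgeR adjusted p = 0.0244) and 6 of 9 fitted higher. The sum was mostly S100b, at a mean of 665 CPM in mSOD against 937 CPM in wt. Aldoc, the next highest, was at 315 against 203 CPM and Slc1a2 at 48.9 against 23.9 CPM, both higher in mSOD but not called. Gfap, at 6.89 against 1.5 CPM, and Fgfr3, at 4.11 against 1.02 CPM, had few counts, and were also higher but not called. Of the 9 astrocyte markers tested, 5 were at an unadjusted p under 0.05 (edgeR), S100b among them. Microglial markers summed to 0 to 10.8 CPM against 10.4 to 17.4 CPM, and endothelial and mural markers to 3.7 to 13.7 CPM against 7.4 to 9.1 CPM, with Kdr and Pdgfrb at 0 in all 8. The part of these differences in the result was not tested. SC P56 mSOD replicate 2 had the lowest rRNA share of its group (0.939% of counts against 1.64% to 1.99%) and no microglial counts.

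Nuclear genes for the same machinery were read from the fit within P6362, in which 1.38% of all genes were called. In a list of this size 0 or few calls are therefore near the background. In that fit 2168 of the 16038 genes were at an unadjusted p under 0.05 (edgeR). Of 79 nuclear-encoded subunits of the respiratory complexes and ATP synthase, 0 were called within P6362 (edgeR, 14 at an unadjusted p under 0.05), 29 had a positive fitted change and the median log2 change was -0.10, against 1.46 for the members. In the fit of all libraries 0 of the 79 were called and the median was -0.05. The 33 genes for mitochondrial transcription and RNA processing had 0 called within P6362 (3 at an unadjusted p under 0.05; median -0.01), and 11 regulators of mitochondrial biogenesis had 0 called (2; median 0.18). Of 21 genes for mitochondrial dynamics and mitophagy, Bnip3, an outer-membrane protein that promotes mitophagy, was lower at 120 ± 32.1 (SD, n = 5) against 224 ± 23.9 CPM (SD, n = 3), a log2 change of -0.91 (edgeR adjusted p = 0.0093), the 1 call of that list.

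A list of 21 genes of mitochondrial stress and the transcription factor ATF4, of which 19 were tested, had 4 called higher within P6362 and 0 lower, against 0.48% of all genes called higher, with a median log2 change of 0.87 against 1.46 for the members. They were Phgdh, the first enzyme of serine synthesis (4.89, edgeR adjusted p = 0.000267), Atf4 itself (1.16, edgeR adjusted p = 0.00775), Ddit3, a transcription factor of the stress response (1.89, edgeR adjusted p = 0.041), and Fgf21, a secreted hormone (4.91, edgeR adjusted p = 0.0413). Several of these were known from earlier results of these libraries when the list was written, so their direction is not independent evidence.

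At P112, with symptoms, 0 of 37 members were called in SC in the fit of all libraries (edgeR), against 0.47% of all genes. DESeq2 called 1. At an unadjusted p under 0.05 there were 2, against 1825 of the 18493 genes (edgeR). Of the members, 24 had a positive fitted change, and 4 did not overlap between genotypes, against 4.76% of all genes. mt-Rnr1 was at 1822, 2265 and 2744 CPM in mSOD (P10814, P11355 and P6362 in this order), and at 1362.8 and 1154 CPM (P10814) and 919, 695 and 905 CPM (P6362) in wt. Every mSOD library lay above every wt library, at 2277 ± 461 (SD, n = 3) against 1007 ± 257 CPM (SD, n = 5). The log2 change was 1.11 (SE 0.29, edgeR adjusted p = 0.0689).

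Each project held at most 1 of the SC P112 mSOD libraries, whose spread was then assumed to be that of the other groups. Within P6362, mt-Rnr1 was the 1 member called, at a log2 change of 1.72 (SE 0.38, edgeR adjusted p = 0.0476, 1 library against 3), against 1.78% of all genes, so that 1 of 37 is near the background and the value has no replicate check in mSOD. Within P10814 its log2 change was 0.53 (edgeR adjusted p = 1, 1 against 2). In the fit of all libraries, leaving out mSOD replicate 1 gave 1 called member. mt-Rnr2 was at 4208, 6287 and 12328 CPM in mSOD and 3689, 3330, 6021, 3425 and 8679 CPM in wt, and overlapped (log2 change 0.58, edgeR adjusted p = 0.652). The difference between the genotype effects at P112 and P56 in SC was negative for 36 of 37 members. For that difference edgeR called 0, against 0.00541% of all genes, and DESeq2 called 0. At an unadjusted p under 0.05 there were 7 members, against 1180 of the 18493 genes (edgeR).

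No member passed in any cranial nucleus. In CN10 at P56, all 37 members had a positive fitted change and 20 did not overlap, all with mSOD higher, against 15.2% of all genes in either direction and 7.62% in that direction. In the fit of all libraries none passed in edgeR, against 0.0162% of all genes called, and DESeq2 called 0. At an unadjusted p under 0.05 there were 12 members, against 2471 of the 18493 genes (edgeR). In the fit within P11355, 0 passed and 15 were at an unadjusted p under 0.05. The lowest adjusted p there was 0.34 (edgeR). mt-Co1 was at 19920, 19053 and 18113 CPM in mSOD and 14928, 12093 and 8434 CPM in wt. The groups of mt-Co1 did not overlap, and the log2 change was 0.69 (SE 0.32, edgeR adjusted p = 0.344). mt-Tt (threonine), named for the smallest adjusted p, was at 44.4 ± 15.4 against 12.3 ± 6.88 CPM (SD, n = 3 each; log2 change 1.84, edgeR adjusted p = 0.222). With no filter on low counts, 4 members were called higher in CN10, without the share of all genes called in that setting beside it. In these libraries summed motor neuron markers were at 1231 to 1635 CPM in mSOD and 1559 to 2241 CPM in wt (1 of 10 fitted higher, 0 called), and summed astrocyte markers at 332 to 409 CPM against 456 to 709 CPM (1 of 10 fitted higher, 0 called). Their part in the result was not tested.

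In CN12 at P56 the direction was the opposite. In the fit of all libraries 28 of 37 members had a negative fitted change, including all 13 protein-coding ones and both rRNAs. There edgeR called 0, against 0.00541% of all genes, and DESeq2 called 0. At an unadjusted p under 0.05 there were 10 members, against 1799 of the 18493 genes (edgeR). In the fit within P11355, 26 had a negative fitted change and 0 were called. In it 7 were at an unadjusted p under 0.05, and the lowest adjusted p was 0.662 (edgeR). mt-Co1 was at 6082, 4347 and 7915 CPM in mSOD and 21614, 10061 and 7096 CPM in wt, a log2 change of -1.08 (SE 0.32, edgeR adjusted p = 0.427). The groups overlapped through wt replicate 3. mt-Co3, at 7927, 5281 and 9105 CPM against 26019, 12047 and 9812 CPM, was the 1 member without overlap, against 14.3% of all genes. With no filter on low counts, 6 members were called lower in CN12, again without the share of all genes called in that setting. Summed oligodendrocyte markers were at 180 to 238 CPM in mSOD and 330 to 364 CPM in wt (2 of 10 fitted higher, 0 called), summed motor neuron markers at 5295 to 6424 CPM against 4498 to 6070 CPM (7 of 10, 0 called), and summed interneuron markers at 6.6 to 67.6 CPM against 35.7 to 417 CPM (0 of 8, 0 called). Their part in the result was not tested.

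The remaining cranial comparisons had 0 members called by edgeR and by DESeq2. At an unadjusted p under 0.05 there were 0 in CN3/4 at P56, 1 in CN3/4 at P112, 0 in CN10 at P112 and 0 in CN12 at P112. The share of all genes called in them was 0%, 0%, 0% and 0.0703%. mt-Rnr1 in CN3/4 at P56 was at 2118, 1500 and 1935 CPM in mSOD and 1008, 1698 and 2436 CPM in wt, which overlapped.

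**Figure D5:**
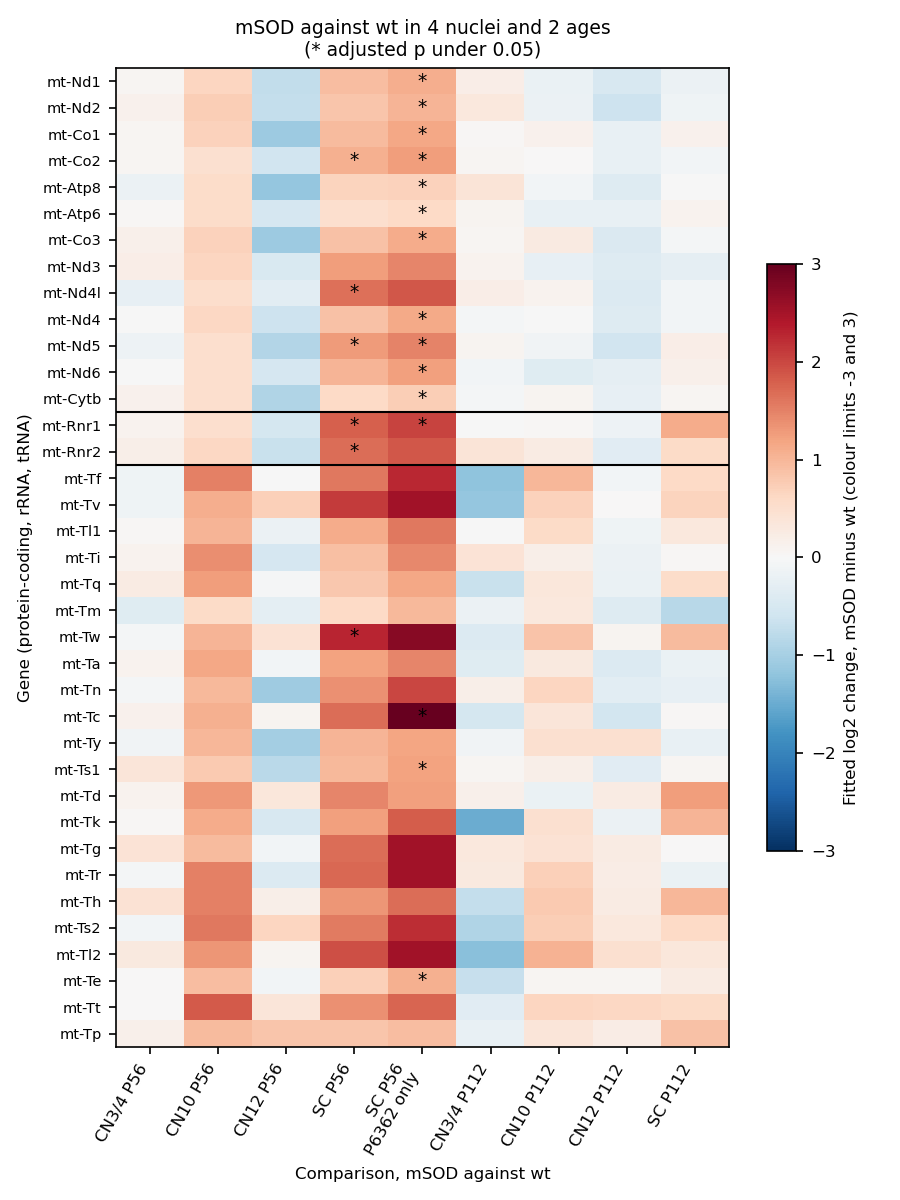
Fitted log2 change, mSOD minus wt, of each of the 37 members (rows, by gene class) in the 8 combinations of nucleus and age, from the fit of all 54 libraries, and in SC at P56 within P6362; red is higher in mSOD, blue lower, and a star marks an adjusted p under 0.05. Stars stand only in the 2 columns of SC at P56, 6 in the fit of all libraries and 15 within P6362, and 28 members are below 0 in CN12 at P56.

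The genotype effect differed between SC and CN12 at P56 for 6 members, all higher in SC, against 0.281% of all genes called in that test of the difference. The differences of log2 change were 2.33 for mt-Rnr1 (SE 0.44, edgeR adjusted p = 0.015), 2.34 for mt-Rnr2 (SE 0.54, edgeR adjusted p = 0.0412), 2.16 for mt-Nd5 (SE 0.43, edgeR adjusted p = 0.0161), 2.03 for mt-Co1 (SE 0.42, edgeR adjusted p = 0.0211), 1.65 for mt-Co2 (SE 0.35, edgeR adjusted p = 0.0211) and 1.97 for mt-Nd4l (SE 0.46, edgeR adjusted p = 0.0378). In CN12, mt-Rnr1 was at 1113.4, 658.5 and 1566 CPM in mSOD and 1691, 1448 and 1661 CPM in wt, which overlapped. The SC mSOD libraries and the CN12 libraries come from different projects, so the comparison rests on the project term. The count was 0 without that term, and also 0 without SC P56 wt replicate 3, CN12 P56 wt replicate 1 or CN12 P56 mSOD replicate 2. It was 1 without CN12 P56 mSOD replicate 1, 2 without SC P56 wt replicate 4 or 5, and 11 without SC P56 wt replicate 1.
Against CN3/4 at P56, 0 members passed in edgeR, against 0.00541% of all genes, and 1 in DESeq2, although all 37 differences were positive. In edgeR, 1 passed without SC P56 mSOD replicate 2. At an unadjusted p under 0.05 there were 10, against 1142 of the 18493 genes (edgeR). Against CN10 at P56, 0 passed in edgeR (0.0379% of all genes) and 0 in DESeq2, with 2 at an unadjusted p under 0.05, against 2637 genes (edgeR). Against CN3/4 at P112, 0 passed in edgeR (0.00541% of all genes) and 0 in DESeq2, with 4 at an unadjusted p under 0.05, against 1289 genes (edgeR).

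Between nuclei of wt mice, over both ages, 0 to 7 of the 37 members were called. CN3/4 had 6 members called against CN10, all higher in CN3/4, against 37.9% of all genes called. The clearest was mt-Tm, the methionine tRNA (ENSMUSG00000064344), which was at 43.2, 79.7 and 62.9 CPM (P56) and 29.4, 29.6 and 93.6 CPM (P112) in CN3/4 and at 35.6, 25.8 and 11.6 CPM and 16.1, 15.9 and 17.7 CPM in CN10. Within each project the CN3/4 libraries lay above all CN10 libraries. The log2 difference was 1.48 (SE 0.35, edgeR adjusted p = 0.00071), 1.32 within P11355 (edgeR adjusted p = 0.0172) and 1.61 within P10814 (edgeR adjusted p = 0.0126), and it passed in all 12 fits that left out a library. mt-Atp6 (0.60), mt-Nd4l (0.70), mt-Nd4 (0.56) and 2 further tRNAs made up the 6. The count was 1 within P11355, against 20.3% of all genes, and 2 within P10814, against 24.4%. It was 2 without CN3/4 P56 wt replicate 2, 3 without CN3/4 P112 wt replicate 3 or CN10 P56 wt replicate 3, 10 without CN3/4 P112 wt replicate 1, 12 without CN10 P56 wt replicate 1 and 15 without CN3/4 P56 wt replicate 1.

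Against SC, CN10 had 2 members called higher and 4 lower, against 37.7% of all genes. mt-Atp6 was at 7878, 8024 and 6660 CPM (P56) and 6217, 7920 and 6523 CPM (P112) in CN10, at 27060 and 14076 CPM (P56) in the P11355 SC libraries and at 7452 to 11061 CPM in the other 8. The log2 difference was -0.96 (SE 0.20, edgeR adjusted p = 0.000106) and it passed in all 16 fits that left out a library. Within P11355 the groups did not overlap and the difference was -1.5 (edgeR adjusted p = 0.00459). Within P10814 it was -0.63 (edgeR adjusted p = 0.11). mt-Atp8 (-1.06), mt-Nd1 (-0.70) and mt-Cytb (-0.60) were the other 3 called lower. The count of 6 fell to 2 without SC P112 wt replicate 2, and was 1 within P11355, against 22.1% of all genes, and 1 within P10814, against 20.5%.

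CN3/4 had 7 members called higher than SC and 0 lower, all tRNAs, against 15.5% of all genes. They include mt-Ts2 (2.38, edgeR adjusted p = 0.0104), mt-Tw (1.47, edgeR adjusted p = 0.013), mt-Tp (0.91, edgeR adjusted p = 0.0162), mt-Tv (1.51, edgeR adjusted p = 0.0248) and mt-Tq (1.74, edgeR adjusted p = 0.043). None was called within P11355 (against 4.53% of all genes) or within P10814 (3.84%). The count of 7 was 0 without CN3/4 P112 wt replicate 3, 1 without SC P112 wt replicate 1 or 2, 3 without CN3/4 P56 wt replicate 2, 4 without CN3/4 P56 wt replicate 3 or SC P56 wt replicate 2, and 13 without SC P56 wt replicate 1.
CN12 against SC had 1 call, mt-Atp6 (-0.67, SE 0.20, edgeR adjusted p = 0.0343), against 6.15% of all genes. It was 0 within P11355, against 0.969% of all genes, and within P10814, against 0.904%, and 0 without SC P112 wt replicate 2 or without replicate 2 or 3 of CN12 wt at either age. The count was 2 without CN12 P56 wt replicate 1 and 4 without SC P56 wt replicate 1. CN3/4 against CN12 had 0 (edgeR, 2 at an unadjusted p under 0.05; DESeq2 0; 8.8% of all genes), as had CN10 against CN12 (edgeR, 0; DESeq2 0; 29.9%). With no filter on low counts these were 4 and 3, without the share of all genes called in that setting.

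In wt mice, both ages lie within 1 project in SC alone. P112 against P56 in wt SC had 0 members called in the fit of all libraries (edgeR), against 0% of all genes. DESeq2 called 0. At an unadjusted p under 0.05 there were 5, against 1574 of the 18493 genes (edgeR). Within P6362, mt-Tc was the 1 member called (log2 change 3.52, edgeR adjusted p = 0.023), against 0.118% of all genes, with 14.2 to 31.6 CPM at P112 and 0.86 to 2.5 CPM at P56. It rests on the same 2, 3 and 7 counts in the P56 libraries. In that project 22 of the 37 members did not overlap between the ages, all higher at P112, against 19.3% of all genes in either direction. Of the 37, 35 had a positive fitted change, with a median log2 of 0.884. At an unadjusted p under 0.05 there were 22, against 1855 of the 16038 genes (edgeR). The same 3 P56 wt libraries are the wt side of the genotype comparison within P6362.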

How the data were processed

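Libraries were prepared with Smart-seq2 from poly(A) RNA, full-length, with no molecular identifier and no strand, per the labels. The authors aligned with STAR 2.7.0e to mm39/GRCm39, per the submitters' processing notes; the counting program and its handling of reads that map to several places are not given in the sources used here. The deposited counts are whole numbers per gene, not normalized, and the deposited RPKM values are reads scaled to gene length and library size. Over the libraries, counts summed to 116.4% to 142.5% of the read total that the RPKM values imply. Library sizes include the SOD1 transgene, which is not among the genes counted.

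The tests ran in edgeR 4.0.16 under R 4.3.3, with limma 3.58.1 and version 1.17.8 of data.table loaded, and DESeq2 1.42.0 served as an alternative. All 54 libraries entered 1 quasi-likelihood fit with TMM factors (0.847 to 1.12), 16 group means and a project term, after filterByExpr on the groups. p-values are two-sided, Benjamini-Hochberg adjusted over all genes of a contrast, and called under 0.05. The SE printed is the absolute log2 change divided by the square root of the F statistic. It therefore holds no information beyond that test. The common dispersion was 0.113. Fits within each project repeated the comparisons, and the P6362 fit tested 16038 genes. CPM of single genes used TMM-scaled library sizes, and those of the list genes within P6362 used the factors of that project's fit. Summed marker CPM used the unscaled count total of the library, SOD1 included. The log2 CPM behind the correlations had a prior count of 2, which the fitted log2 changes did not use. The smallest chi-square per gene between replicates was 3.98, so no replicate within a group was a copy of another; pairs between groups were not compared. Nuclear copies were found with blastn 2.17.0 on GENCODE M21 transcripts, whose build, GRCm38, is not that of the files, so coordinates are left out. Gene symbols could be assigned to 52079 identifiers. Figures were drawn with Python 3.11.15 and matplotlib 3.10.9.

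Named are the rRNAs and all protein-coding members, the tRNAs that passed in any comparison (at most 5 by smallest p), the 2 tRNAs with the most counts, and up to 3 called genes per list and direction. Members, lists and tests were chosen with earlier results of these data known. Summing members with their copies, and the alternatives within P6362, were chosen after seeing the data. p-values measure the spread between these libraries.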

Additional observations from a re-analysis of the deposited data

Results flagged for a closer look

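In 6 members the genotype effect at P56 differed between SC and CN12 by a test of the difference itself (edgeR quasi-likelihood, adjusted over all genes): the difference of log2 change, SC minus CN12, was 2.33 for mt-Rnr1, 2.34 for mt-Rnr2, 2.03 for mt-Co1, 1.65 for mt-Co2, 2.16 for mt-Nd5 and 1.97 for mt-Nd4l. The mSOD libraries of SC and those of CN12 come from different sequencing projects. Of 48 sets of values of 1 group and measure, 0 had a highest or lowest library past Dixon's limit for its gap to the next. Only the groups of 5 libraries (SC P56 mSOD, SC P56 wt and SC P112 wt) were checked, so no group of 3 was. Both wt groups mix projects, which widens their range, so the check could miss an outlying library.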

How the results depend on the processing

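No paired analysis was possible because replicate numbers follow the order of deposition. Counts of called members stayed within 1.5 times in all 21 comparisons with DESeq2's size factors (RLE) in edgeR, with library sizes that leave out members and SOD1, and with members summed with their nuclear copies. Most of the 21 had 0 called in the main fit and again 0 in these settings, which was scored as the same. Only the others had a count that could stay within this range. With no filter on low counts, members called were 4 (CN10 P56), 6 (CN12 P56), 19 (SC P56), 1 (SC P112), 16, 14 and 9 (CN3/4, CN10 and CN12 against SC), 4, 3 and 17 (CN3/4 against CN12, CN10 against CN12, CN3/4 against CN10), 17, 4 and 2 (SC minus CN12, CN3/4 and CN10 at P56), 2 (SC minus CN3/4 at P112), 5 (SC, P112 minus P56) and 1 (SC wt by age); the cause was not tested. DESeq2 called 11 in SC at P56, 1 in SC at P112, 11 in SC minus CN12 and 1 in SC minus CN3/4 at P56. Without the project term the counts against SC were 14, 10 and 7 (CN3/4, CN10, CN12), SC minus CN12 had 0, and the changes in SC at P56 reversed for mt-Nd1 (-0.34), mt-Co1 (-0.09), mt-Atp6 (-0.13), mt-Co3 (-0.68), mt-Nd3 (-0.01), mt-Nd4 (-0.04) and mt-Cytb (-0.26). Within projects, which hold fewer libraries, counts were 15 in SC at P56, 1 in SC at P112 and 1 for SC wt by age (P6362), and in P11355 and P10814 they were 0 and 0 (CN3/4 against SC), 1 and 1 (CN10), 0 and 0 (CN12), and 1 and 2 (CN3/4 against CN10). Within P6362 in SC at P56 the count was 15 under 3 settings, 22 with no filter and 21 with DESeq2. With nuclear counts as denominator the P6362 share ratio in SC at P56 was 2.25. Leaving out 1 library gave 1 to 9 called members in SC at P56, 9 to 18 within P6362, 0 to 1 in SC at P112, 0 to 13, 2 to 8 and 0 to 4 (CN3/4, CN10, CN12 against SC), 2 to 15 (CN3/4 against CN10), 0 to 11 (SC minus CN12) and 0 to 1 (SC minus CN3/4 at P56). The counts under DESeq2, with no filter and without the project term are given without the share of all genes called in those settings. They are therefore not read against a background. Reads without molecular identifiers are not independent molecules, and the tRNAs with few counts are limited by depth.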

Other observations

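The genes most like the summed protein-coding members over the 54 libraries were their nuclear copies. After the group and project means were removed from log2 CPM, Pearson's r was 0.97 for Gm13340, 0.97 for Gm13341, 0.96 for Gm28437, 0.96 for Gm29216 and 0.96 for Gm28661. All 5 are annotated as unprocessed pseudogenes and share sequence with the members. The values are a description with no test.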
